A study of Homo sapiens with 4 samples.

Results

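The genes described here are 10 transcription factors and regulators of the integrated stress response, namely ATF3, ATF4, ATF5, DDIT3, TRIB3, CHAC1, CEBPB, CEBPG, PPP1R15A and EIF2AK3. They were followed in A549 cells, an established human lung adenocarcinoma line, in 2 untreated control samples and 2 samples given embelin, a plant benzoquinone, at 15 µM, with RNA taken at 4 h. The cells had been moved to medium with reduced serum before treatment, and the controls are labelled untreated, with no vehicle named. Each sample was labelled with Cy3 and hybridised to 1 one-colour Agilent array, and the comparison was made to find pathways that respond early to embelin. Members were all non-control probes that carry the name of a member gene or the accession of one of its RefSeq transcripts, which gave 16 of the 50238 probes on the array. All 16 were bright enough to be tested, and 15 of them were called well above background on all 4 arrays. The 10 genes were among 17649 genes or transcripts tested. The labels do not say whether the 2 samples of a group came from separate cultures. The p-values and SE thus rest on the spread between these samples, which may be technical, shared in part over all genes by the fit. Since RNA came from whole cultures, more transcript in each cell and more cells that make it cannot be told apart.

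In the integrated stress response, kinases that sense different kinds of stress phosphorylate the translation factor eIF2, and most protein synthesis falls. EIF2AK3 (PERK) is the kinase that answers to unfolded protein in the endoplasmic reticulum. The transcripts of ATF4, ATF5, DDIT3 and PPP1R15A hold upstream open reading frames and are translated better in this state, so that the RNA measured here need not follow the protein. ATF4 is a basic leucine zipper (bZIP) factor that pairs with C/EBP proteins such as CEBPB and CEBPG on composite C/EBP-ATF elements. DDIT3 (CHOP) and ATF3 act downstream of it, TRIB3 and CHAC1 are among its targets, and PPP1R15A (GADD34) brings a phosphatase to eIF2 and closes the loop.

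Each probe is a 60-base oligonucleotide. The 5 shown here, printed 5′ to 3′ as the array files give them, read coding sequence and show what was hybridised where a gene rested on 1 probe (PPP1R15A) or where a second, dimmer probe gave another reading (ATF3, ATF4, TRIB3 and CEBPB).
ATF3 probe 2: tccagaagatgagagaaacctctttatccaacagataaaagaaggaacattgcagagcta
ATF4 probe 2: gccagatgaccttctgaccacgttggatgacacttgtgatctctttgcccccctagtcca
TRIB3 probe 2: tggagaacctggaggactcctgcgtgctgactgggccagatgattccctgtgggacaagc
CEBPB probe 2: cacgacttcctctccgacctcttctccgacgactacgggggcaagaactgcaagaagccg
PPP1R15A probe 1: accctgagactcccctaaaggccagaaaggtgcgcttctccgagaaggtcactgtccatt
The 2 probes of ATF3 shared no run longer than 5 bases, those of ATF4 none longer than 8, those of TRIB3 none longer than 4 and those of CEBPB none longer than 7, so each pair read separate stretches of its transcript. ATF5 had 3 probes, of which probes 1 and 2 overlapped by 47 bases and are nearly the same measurement.

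Promoter windows from RefSeq (GRCh38.p14), each 300 bases long with 250 bases before and 50 after an annotated start site, were found for all 10 genes, 19 windows in all, and some windows of 1 gene overlap. The core of the C/EBP-ATF element, searched as TGATGNAA on both strands, was in 3 of the 19 windows, against 3.62% of all 35116 windows. The cyclic AMP response element TGACGTCA was in 1, against 1.85%, and the endoplasmic reticulum stress element was in 0, against 0.0769%. The 4 windows with a match are shown because ATF4, C/EBP and CREB-family factors are known to bind these letters, with the match in capitals.
ATF3, chr1:212565157-212565456, + strand: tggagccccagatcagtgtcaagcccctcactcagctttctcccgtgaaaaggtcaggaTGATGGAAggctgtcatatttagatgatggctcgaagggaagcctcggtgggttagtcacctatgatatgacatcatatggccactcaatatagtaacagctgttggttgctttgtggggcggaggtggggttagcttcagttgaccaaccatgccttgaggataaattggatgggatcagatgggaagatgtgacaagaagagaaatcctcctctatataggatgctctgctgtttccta
CHAC1, chr15:40953221-40953520, + strand: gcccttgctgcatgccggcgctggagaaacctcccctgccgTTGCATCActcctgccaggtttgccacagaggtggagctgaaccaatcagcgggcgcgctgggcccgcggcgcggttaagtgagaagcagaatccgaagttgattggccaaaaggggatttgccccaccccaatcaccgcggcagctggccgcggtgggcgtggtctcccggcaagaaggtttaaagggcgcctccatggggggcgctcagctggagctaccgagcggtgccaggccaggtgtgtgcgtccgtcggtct
CEBPG, chr19:33373863-33374162, + strand: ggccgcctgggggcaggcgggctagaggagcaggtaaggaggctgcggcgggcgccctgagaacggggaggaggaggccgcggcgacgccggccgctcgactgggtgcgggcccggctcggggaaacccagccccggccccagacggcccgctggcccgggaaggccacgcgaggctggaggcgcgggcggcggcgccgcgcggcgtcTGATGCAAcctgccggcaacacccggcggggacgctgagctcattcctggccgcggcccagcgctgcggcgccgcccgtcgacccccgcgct
PPP1R15A, chr19:48872171-48872470, + strand: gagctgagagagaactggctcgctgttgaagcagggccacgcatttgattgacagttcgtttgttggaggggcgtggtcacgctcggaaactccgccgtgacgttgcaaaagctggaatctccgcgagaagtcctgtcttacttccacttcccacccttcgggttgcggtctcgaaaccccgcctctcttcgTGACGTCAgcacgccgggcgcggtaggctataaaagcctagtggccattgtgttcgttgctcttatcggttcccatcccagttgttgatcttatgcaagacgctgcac
In ATF3 the match TGATGGAA began 191 bases before the start site, in 1 of the gene's 2 windows. The match of CHAC1, TTGCATCA, lay on the other strand and began 209 bases before the start. In CEBPG, TGATGCAA began 42 bases before 1 of its 2 starts, and in PPP1R15A the cyclic AMP response element began 58 bases before the start. A match is a description of the letters in the window and not a binding site.

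The arrays lay on 1 slide and were brought to the same 75th percentile, so values here are normalized log2 signals, and a difference of 1 is a 2-fold change. The control replicate 2 and embelin replicate 1 arrays had the noisier background, with an SD of the negative control spots of 4.59 and 5.29 against 2.55 and 2.97 on the other 2. These noisier arrays had 50.3% and 51.2% of probes well above background, against 66.7% and 66.4%. All 8 epithelial and drug-metabolism markers of A549 were well above background on all 4 arrays, and their summed log2 level lay between 19.5 and 19.72. Of 6 markers of blood, endothelial and mesenchymal cells, none was well above background on all 4 arrays. Their summed log2 level was 7.01 and 7.2 in the controls and 9.78 and 7.14 with embelin, and the higher value of embelin replicate 1 came with COL3A1 at 8.86 and PTPRC at 7.57. Its part in the results was not tested. Without embelin replicate 1 the median difference of the 10 genes was 1.75 on the log2 scale, against 1.69 with all 4 arrays.

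The stress response genes were higher with embelin in most cases. Of the 10 genes, 5 rose at an adjusted p under 0.05 (limma, Benjamini-Hochberg over all genes tested), namely ATF3, DDIT3, PPP1R15A, TRIB3 and CHAC1, where 1.81% of all genes were called, 1.25% higher. None of the 10 was called lower, against 0.561% of all genes. By the rule of at least 2-fold and an unadjusted p under 0.05, 7 of 10 were higher, with CEBPG and EIF2AK3 added, against 4.27% of all genes, and 0 were lower, against 3.99%. The samples of both groups did not overlap for any of the 10, with 9 higher and ATF5 lower, but 21.1% of all genes were higher and 30.7% lower in this sense. The median difference of the 10 was 1.69, and that of all genes was -0.06.

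The calls by adjusted p rested on all 4 arrays. With any 1 array left out, 0 of the 10 genes passed, while 6 to 8 had an unadjusted p under 0.05, against 12.1% to 17.6% of all genes in the same fits. EIF2AK3 met the 2-fold rule in only 1 of these 4 fits. Leaving out control replicate 1 gave a difference of 2.15, leaving out control replicate 2 gave 0.99, and its unadjusted p was 0.0502 and 0.0852 without embelin replicates 1 and 2. An exact permutation test of 2 samples against 2 cannot give a p below 0.333.

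ATF3, a bZIP repressor and activator that is switched on early by many kinds of stress, had the largest difference of the 10. Its normalized log2 signal was 8.55 and 8.24 in the controls and 14.10 and 14.11 with embelin. The 2 embelin samples lay almost on each other and far above both controls. The difference was 5.71 ± 0.19 (SE, n = 2 per group), a 52.3-fold rise with an adjusted p of 0.0204, and it ranked 7 among all genes ordered by rise. Probe 2 of ATF3, printed above, was not well above background in either control, where it read 2.97 and 3.56, and stood at 8.93 and 9.35 with embelin. It was thus at least 19.7-fold higher, taking the lowest signal called well above background on each control array as its bound. This probe passed the filter through the embelin samples alone, so its fit gives no further support.

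DDIT3 encodes CHOP, a C/EBP family member that promotes cell death in prolonged stress. The controls read 7.21 and 7.28 and the embelin samples 11.55 and 11.41, and each group held together within a narrow range. Embelin raised DDIT3 by 4.24 ± 0.17 (SE, n = 2), or 18.9-fold, with an adjusted p of 0.0204.

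**Figure D1:**
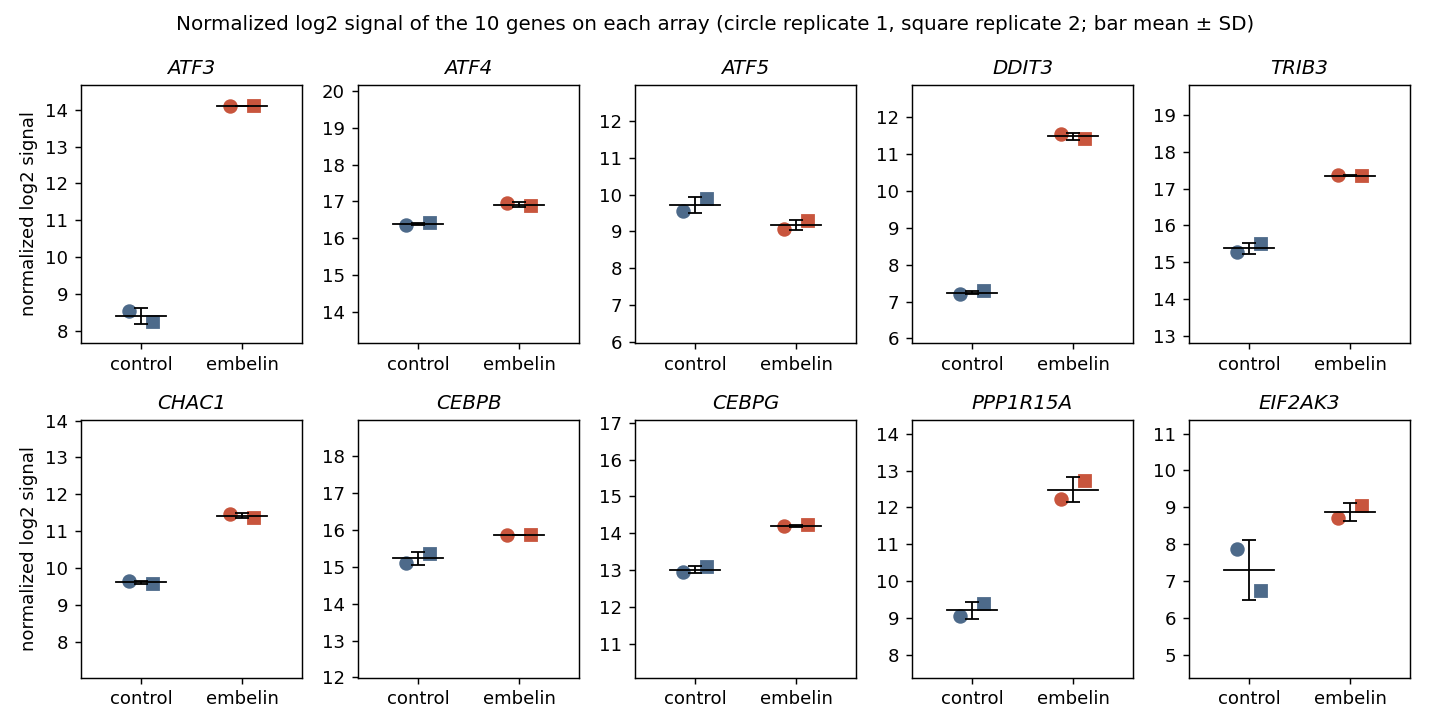
Normalized log2 signal (y axis) of each of the 10 genes in control and embelin samples (x axis), with circles for replicate 1, squares for replicate 2 and bars for the mean ± SD (n = 2). Every panel spans the same number of log2 units, so heights of steps can be compared between genes but levels cannot. ATF3 stepped from 8.39 to 14.10 and DDIT3 from 7.24 to 11.48, whereas the means of ATF4 were 16.39 and 16.91 and ATF5 was lower with embelin.

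ATF4, ATF5, CEBPB and CEBPG had smaller differences than ATF3 and DDIT3. The highest of their 95% intervals, that of CEBPG, ended at 1.64, and that of DDIT3 began at 3.79. ATF4 read 16.37 and 16.41 in the controls and 16.96 and 16.87 with embelin. This is a difference of 0.52 ± 0.16 (SE, n = 2), or 1.44-fold, with a 95% interval from 0.09 to 0.96 and an adjusted p of 0.199, so it did not pass the test. The second probe of ATF4 gave 12.84 and 13.11 in the controls and 13.63 and 13.72 with embelin, a difference of 0.69 ± 0.20 with an adjusted p of 0.194 over all probes. Both probes were higher in both embelin samples.

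ATF5, a relative of ATF4 that is also controlled in translation and acts in the mitochondrial stress response, was the 1 gene of the 10 with lower values. The brightest probe read 9.57 and 9.88 in the controls and 9.07 and 9.27 with embelin, a difference of -0.55 ± 0.20 (SE, n = 2) with a 95% interval from -1.10 to 0.00 and an adjusted p of 0.257. Its overlapping probe 2 gave a difference of -0.72 ± 0.24. Probe 3, which reads another stretch, differed by only -0.18 ± 0.31, with overlapping groups at 8.35 and 9.03 against 8.68 and 8.34. No probe of ATF5 passed the test.

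CEBPB, a C/EBP factor of inflammation and differentiation, read 15.11 and 15.36 in the controls and 15.87 and 15.88 with embelin. The difference of 0.64 ± 0.18 (SE, n = 2), or 1.56-fold, had an adjusted p of 0.172. Its second probe scattered within both groups, with 8.85 and 10.36 against 9.57 and 10.53, and differed by 0.45 ± 0.63.

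CEBPG, a C/EBP protein without its own activation domain that pairs with ATF4, read 12.94 and 13.08 in the controls and 14.19 and 14.22 with embelin. All 4 values lay close to their group means, and the difference was 1.19 ± 0.16 (SE, n = 2), or 2.29-fold. This passed the 2-fold rule, with an adjusted p of 0.0592.

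Of the targets and feedback genes, TRIB3 is a pseudokinase that binds ATF4 and AKT and is induced by both ATF4 and CHOP. It was already bright in the controls at 15.27 and 15.49 and reached 17.36 and 17.35 with embelin. TRIB3 rose by 1.97 ± 0.17 (SE, n = 2), or 3.93-fold, with an adjusted p of 0.035. Its second probe spread more, from 9.40 and 10.56 to 12.17 and 12.80, and its difference of 2.51 ± 0.48 had an adjusted p of 0.106 over all probes. With the mean of both probes in place of the brightest, TRIB3 differed by 2.24 and the adjusted p was 0.0614, so the call was lost.

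CHAC1 degrades glutathione and is induced through ATF4, ATF3 and CHOP. The controls read 9.64 and 9.57 and the embelin samples 11.48 and 11.37. CHAC1 rose by 1.82 ± 0.16 (SE, n = 2), or 3.52-fold, with an adjusted p of 0.0357.

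PPP1R15A, the stress-induced subunit that directs protein phosphatase 1 to eIF2, read 9.05 and 9.37 in the controls and 12.24 and 12.72 with embelin. It rose by 3.27 ± 0.25 (SE, n = 2), or 9.66-fold, with an adjusted p of 0.0267. EIF2AK3, the kinase on the other side of this loop, had the widest spread of the 10, with 7.87 and 6.72 in the controls and 8.70 and 9.04 with embelin. The higher control and the lower embelin sample were nearer to each other than the 2 controls were. Its difference was 1.57 ± 0.45 (SE, n = 2), or 2.97-fold, with a 95% interval from 0.35 to 2.79 and an adjusted p of 0.176.

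Over all 16 probes, 6 were called higher at an adjusted p under 0.05, against 0.83% of the 26145 probes tested. These were both probes of ATF3, the single probes of DDIT3, CHAC1 and PPP1R15A and the brighter probe of TRIB3. ATF3 probe 2 is in this count although it was kept through the embelin samples alone, and without it 5 probes were called, in 5 genes. In each of the 5 genes with more than 1 probe, all probes differed in the same direction, not all past the test.

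**Figure D2:**
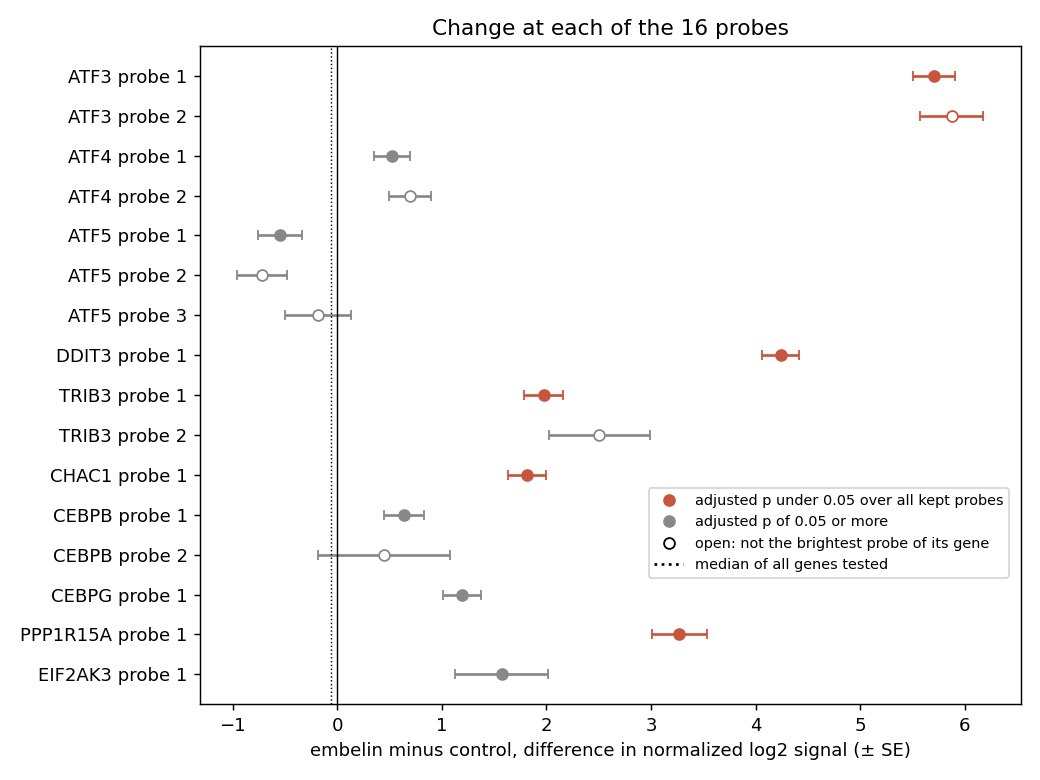
Difference between embelin and control in normalized log2 signal (x axis, ± SE, n = 2 per group) for each of the 16 probes (y axis). Red marks an adjusted p under 0.05, open circles are probes that did not stand for their gene, and the value of ATF3 probe 2 rests on controls not well above background. The plot shows both ATF3 probes near 5.7 to 5.9, DDIT3 at 4.24 and all 3 ATF5 probes below 0.

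Since 1 control and 1 embelin array shared the noisier background, differences were also taken within each kind of array. In the quieter pair, embelin replicate 2 less control replicate 1, ATF3 differed by 5.56 and DDIT3 by 4.21, and in the noisier pair by 5.86 and 4.27. PPP1R15A differed by 3.67 in the quieter pair and 2.87 in the noisier one. EIF2AK3 went the other way, with 1.16 and 1.99. ATF5 differed by -0.30 and -0.80. Since the groups did not overlap for any of the 10 genes, the direction in both pairs was fixed in advance. Only the sizes of the differences can be compared between the pairs. With the kind of array as a block, a fit chosen after seeing the data, 0 of 10 genes and 0 of all genes passed the adjusted threshold. In this fit 8 of the 10 had an unadjusted p under 0.05, against 15.6% of all genes.

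**Figure D3:**
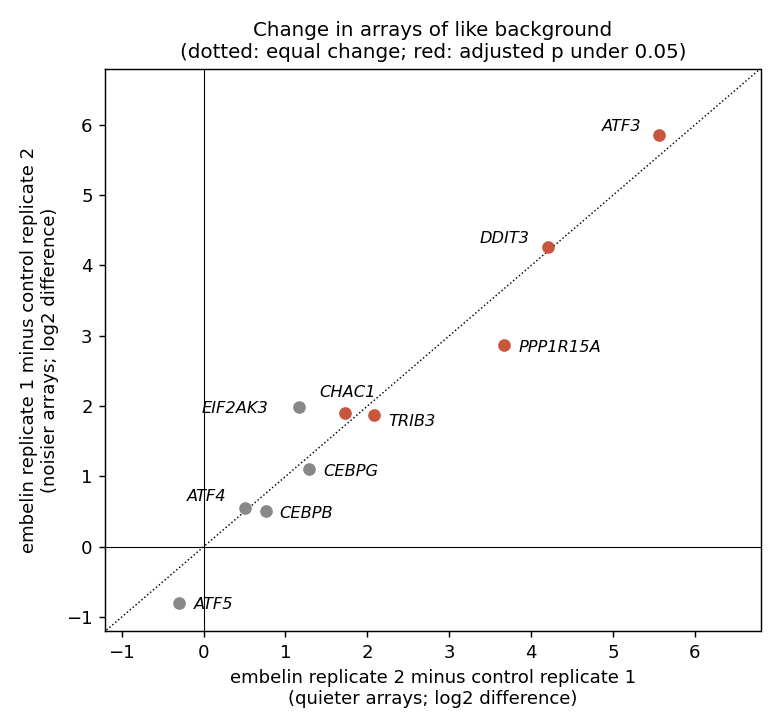
Log2 difference between embelin and control in the 2 quieter arrays (x axis) against that in the 2 noisier arrays (y axis) for the 10 genes, with equal change as the dotted line and genes called by adjusted p in red. ATF3, DDIT3 and CEBPG lie near the line, PPP1R15A lies below it at 3.67 and 2.87, and EIF2AK3 lies above it at 1.16 and 1.99.

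Other genes of the pathway, in 5 lists, were read beside the 10. The first held 20 genes of the eIF2 machinery, that is the other eIF2 kinases, the subunits of eIF2 and of its exchange factor eIF2B, the phosphatase subunits and the mitochondrial relay. All 20 were tested and 0 were called in either direction, against 1.81% of all genes. Of the 20, 2 (10%) had an unadjusted p under 0.05, against 19.5% of all genes. Their median difference was -0.14, against -0.06 for all genes, and was -0.02 without control replicate 2 and -0.04 without embelin replicate 1. OMA1 and DELE1, the 2 with the lowest p, are known from the relay that reports mitochondrial stress to eIF2. OMA1, the protease, read 10.49 and 10.52 in the controls and 9.83 and 9.85 with embelin, a difference of -0.66 with an adjusted p of 0.133. DELE1, the protein it cleaves, read 10.44 and 10.48 against 10.92 and 11.05, a difference of 0.53 with an adjusted p of 0.205, though its other probe differed by 0.13. EIF2S2, a subunit of eIF2, and PPP1CB, a catalytic subunit of phosphatase 1, differed by 0.40 and 0.40 with adjusted p of 0.411 and 0.416, and the other probe of EIF2S2 by -0.15.

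Among 35 other bZIP factors, 33 were tested (BATF and HLF were too dim). Of these 3 were called higher, or 9.09%, and 0 lower, against 1.25% and 0.561% of all genes. By the 2-fold rule, which 4.27% of all genes passed as higher and 3.99% as lower, 8 of the 33 were higher and 2 lower. Their median was 0.20, also with FOSB, which was not well above background in the controls, at its bound, and was 0.39 without embelin replicate 1, 0.11 without embelin replicate 2 and 0.13 without control replicate 2. The 3 called were FOSL1, FOS and NFIL3. FOSL1, a Fos family member, read 6.64 and 6.63 in the controls and 8.93 and 9.09 with embelin, a rise of 2.37 with an adjusted p of 0.0246. FOS rose by 2.43 with an adjusted p of 0.0306, and NFIL3, a bZIP repressor, by 2.04 with an adjusted p of 0.0267. JUNB, a Jun family member, differed by 1.47 with an adjusted p of 0.0513, but its other probe by only 0.42. JUN and CREB5, named after their values were seen, had larger differences than FOS, at 3.64 and 2.74, but were not called. CREB5 was well above background on only 1 control array. FOSB, kept through the embelin samples alone, was at least 4.35-fold higher by its bound and was not called. The 2 lower ones, named here after their values were seen, were DBP and BATF2, with differences of -2.41 and -1.60, and each was well above background on only 1 of the embelin arrays. The other probe of DBP differed by 0.02.

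Of 31 other targets of ATF4 and CHOP, 29 were tested (FGF21 was too dim and CARS1 was not found by name). Of these 6 were called higher, or 20.7%, and 0 lower, against 1.25% and 0.561% of all genes. By the 2-fold rule 8 were higher, or 27.6%, and 0 lower, against 4.27% and 3.99% of all genes. STC2, a secreted glycoprotein of calcium and phosphate balance, read 10.03 and 10.55 in the controls and 15.30 and 15.78 with embelin, a rise of 5.25, or 38.1-fold, with an adjusted p of 0.0204 and 3.60 at its other probe. VEGFA, the angiogenic growth factor, rose by 3.63 with an adjusted p of 0.0312. SESN2, which restrains mTORC1 when leucine is scarce, rose by 3.01 with an adjusted p of 0.0233, and GDF15, a stress cytokine, by 2.08 with an adjusted p of 0.038. The others called, ERO1A and DDIT4, were named after their values were seen and rose by 1.96 and 1.75. The median over the 29 was 0.45, and 0.26 without embelin replicate 2. Their differences ran from -0.81, at SLC38A2, to 5.25. PHGDH and PSAT1, also named after their values were seen, differed by 0.13 and 0.04, and ASNS and MTHFD2 by 0.72 and 1.25. None of these was called. As for the 10 genes, 0 of both lists passed with any 1 array left out, where 11 to 15 of the other bZIP factors and 10 to 12 of these targets had an unadjusted p under 0.05, beside the 12.1% to 17.6% of all genes given above.

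The relatives of TRIB3 and CHAC1 did not pass the test, which 1.81% of all genes passed. Of 4, TRIB2 was too dim, and 1 of the other 3 had an unadjusted p under 0.05, against 19.5% of all genes. CHAC2, which shares the activity of CHAC1, read 10.02 and 9.91 in the controls and 9.22 and 9.37 with embelin, a difference of -0.67 with an adjusted p of 0.147. TRIB1 differed by 0.39, with 1.12 at its other probe, and GGCT by -0.10.

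The IRE1 and ATF6 arms answer to the same endoplasmic reticulum stress as PERK, through XBP1 splicing and ATF6 cleavage, and raise chaperones. Of 19 genes, 18 were tested (ERN2 was too dim), and 0 were called, against 1.81% of all genes. By the 2-fold rule 0 passed, against 4.27% of all genes higher and 3.99% lower. An unadjusted p under 0.05 was reached by 2 (11.1%), against 19.5% of all genes. The chaperone HSPA5 (BiP), named after its values were seen, read 12.87 and 13.08 in the controls and 12.38 and 13.16 with embelin, with overlapping groups. The lowest p-values were of WFS1, CRELD2, SDF2L1 and DNAJB11, proteins of the endoplasmic reticulum, whose differences were -0.57, -0.49, -0.49 and -0.32 with adjusted p from 0.196 to 0.406. The median over the 18 was -0.14, and it was 0.02 without embelin replicate 1, -0.22 without control replicate 1 and -0.26 without embelin replicate 2. The splicing of XBP1 is not read by these probes. Its transcript, counted among the other bZIP factors, differed by 0.48 with an adjusted p of 0.243, and by 0.67 at its other probe.

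**Figure D4:**
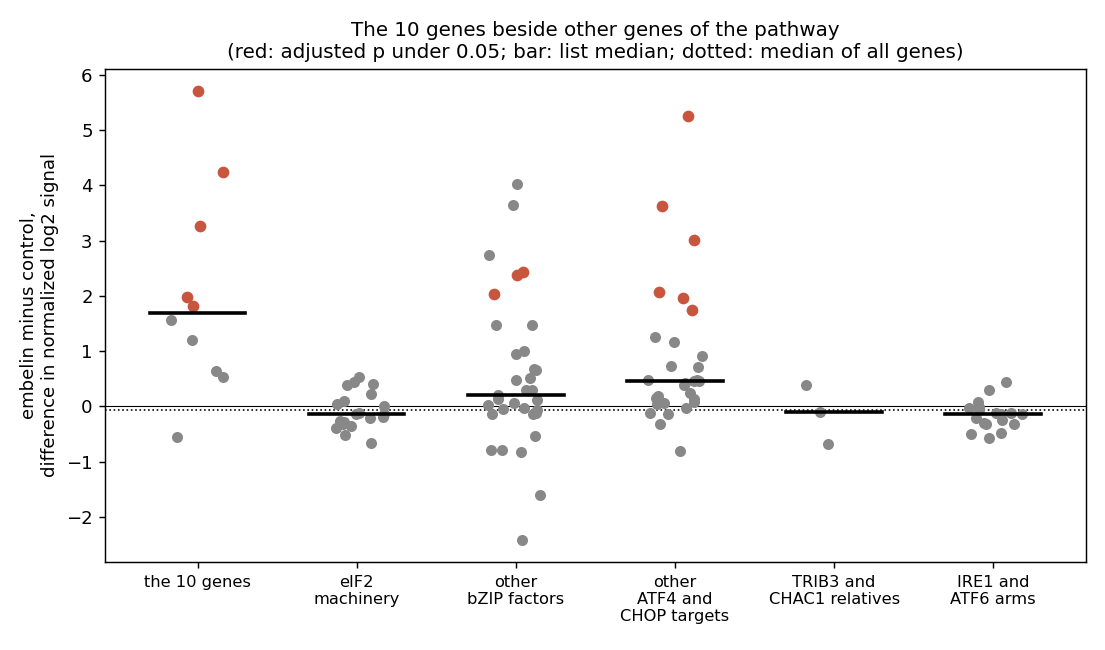
Difference between embelin and control in normalized log2 signal (y axis) for the 10 genes and for each of the 5 lists (x axis), with 1 point per tested gene, red for an adjusted p under 0.05, bars for list medians and the dotted line for the median of all genes. The 10 genes had a median of 1.69, the other ATF4 and CHOP targets 0.45 and the other bZIP factors 0.20. No gene of the eIF2 machinery, of the relatives or of the IRE1 and ATF6 arms is red, where 1.81% of all genes were called.

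Genes whose pattern over the 4 arrays was most like that of a member were taken as those with the smallest root mean square distance between log2 values centred on their own mean, over 11526 genes. For ATF3 these were the glycolytic enzyme HK2 at 0.09, the lipase inhibitor ANGPTL4 at 0.21 and STC2 at 0.41, all in log2 units. Nearest to DDIT3 were ANKRD37 at 0.11, ARID5A at 0.12 and the nuclear receptor NR4A3 at 0.14. SH3PXD2A at 0.05, NFIL3 at 0.06 and the ephrin EFNA1 at 0.07 were nearest to TRIB3, and BTG1 at 0.03, CCDC107 at 0.04 and FAM162A at 0.04 to CHAC1. None of these 12 was itself one of the 10 genes. With 4 arrays in 2 groups genes with a difference of like size come out as near, and that difference was 5.78 for HK2 and 4.10 for ANKRD37.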

How the data were processed

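RNA of 2 control and 2 embelin samples of A549 cells was measured on 1 slide of one-colour Agilent arrays. The authors deposited the processed intensity of each spot from Feature Extraction 10.7.3.1 (per the file headers), with background subtracted and not normalized between arrays. They also deposited a table of intensities per probe, not on the log2 scale, which was used as an alternative. Intensities were scaled to equal 75th percentiles as in the study's methods, with values under 1 set to 1, and converted to log2. Spots flagged as outliers were dropped before replicate spots were averaged. A probe was kept if either group had it well above background on both its arrays (26145 of 50238), and the brightest kept probe stood for a gene. Limma 3.58.1 (R 4.3.3, lmFit and eBayes) was fitted over 17649 genes with Benjamini-Hochberg adjustment, and was tested on simulated data. The SE given are those of this fit, which draws the spread of each gene toward that of all genes. The number of arrays limits the precision, with a median pooled SD of 0.21. Probes were named through a current gene table (28595), another probe of the same name (2341) or the file (19302). The named genes were all members, the 4 lowest p-values of each list and the 3 nearest patterns of 4 members, and other list genes in the text were chosen after their values were seen. Members and lists were chosen with earlier results of these data known. The alternatives were background correction, normalization, the deposited table, filters, the methods' t-test, eBayes with trend, blocks, position and leaving out each array.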

Additional observations from a re-analysis of the deposited data

How the results depend on the processing

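The direction of every one of the 10 genes was the same under all 15 alternatives, but most of them could not change it. Leaving out an array could not, since the groups did not overlap. The filters, other tests, blocks and position left the differences of the 10 genes unchanged. The mean over probes could not change a direction either, since all probes of a gene differed in the same direction. Only normexp, the other normalization and the deposited values could have changed one. The deposited table left little room for it, since it differed from the averaged spot intensities at only 97 to 117 probes per array. The number called by adjusted p was not stable. It was 0 of 10 with no filter on dim probes, with the methods' t-test, with position on the slide as a covariate, with the replicate block and with the array background block, and 0 without each array in turn. In these same fits 0 member probes, 0 other bZIP factors, 0 other ATF4 and CHOP targets and 0 of all genes passed, against 6, 3, 6 and 320. At an unadjusted p under 0.05, 7 of the 10 genes passed without the filter and 8 by the methods' t-test. With position 8 passed, with the replicate block 10 and with the array background block 8. In these 5 fits 2343 to 3743 of all genes passed, from 7.57% without the filter to 21.2% with the replicate block. By the 2-fold rule the methods' t-test called 6 of the 10 genes, beside 527 higher and 472 lower among all 17649 genes. With trend and robust eBayes 8 of the 10 genes, 6 other bZIP factors, 10 other targets and 1061 genes in all were called. Normexp background correction called 7 other bZIP factors and 699 genes, the filter on all 4 arrays 5 and 764, and 3 other targets and 159 genes passed with the deposited values.

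The sources of these changes were not tested, other than that a left-out array or a block leaves 1 residual degree of freedom. Same-numbered samples deviated together with r of 0.175 over genes, which with 2 pairs does not show a pairing, and the replicate block called 0 of 10 genes. The median difference of the 10 was 1.47 with normexp and ran from 1.52 to 1.86 without 1 array, and that of the TRIB3 and CHAC1 relatives was -0.39 with no filter. Without embelin replicate 2 the median of all genes was -0.11. Of the values for single genes and medians over all settings, 46 lost their call, 5 gained one, 4 medians moved and 185 did neither. The calls gained were of ATF4, CEBPB and CEBPG with trend and robust eBayes, and of CEBPG with normexp and with the filter on all 4 arrays. The deposited values gave 126 genes higher and 33 lower, against 221 and 99. ATF3 probe 2 was not well above background in the controls, so its value there is a bound.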
